A study of Mus musculus with 6 samples.

Results

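Carboxylesterases are serine hydrolases of the endoplasmic reticulum that split ester, amide and thioester bonds. In the mouse liver they clear drugs and other foreign esters, and several of them hydrolyse stored triglyceride or shape the lipid that leaves the cell in lipoproteins. The family has grown by tandem duplication in rodents, so that the mouse carries many neighbouring copies where humans have few. The 10 genes described here are Ces1b, Ces1c, Ces1d, Ces1e, Ces1f, Ces1g, Ces2a, Ces2c, Ces2e and Ces3a, taken by symbol from a deposited table of 25230 genes that holds 20 carboxylesterase rows in all. Each of the 10 passed the filter on low counts and was tested.

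The libraries came from formalin-fixed, paraffin-embedded liver of male C57BL/6 mice that had all been injected with the liver carcinogen diethylnitrosamine (DEN, 25 mg/kg body weight) at 14 days of age, with 7 months given as the time of sampling. Regions were cut from serial sections with the Millisect dissection instrument. One group is 3 regions of normal adjacent liver and the other is 3 small regions in which glycogen had accumulated, labelled as small tumours and called lesions here. The comparison asks which transcripts differ between such a lesion and the liver beside it, and both sides of it carry the DEN exposure. The labels do not tie a region to a mouse, so the p-values measure the spread between these 6 samples and would understate the error where several regions came from 1 animal.

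A normal library held 6352898 to 6542997 counts and a lesion library 7294716 to 7412833. The 10 carboxylesterases took 0.419% to 0.452% of the raw counts in normal regions and 0.305% to 0.324% in lesions. Raw shares also move with other abundant RNAs. Albumin alone took 3.37% to 3.72% of the raw counts in normal regions and 7.25% to 8.84% in lesions. In CPM (counts scaled to library size with TMM factors) the 10 carboxylesterases summed to 4019 to 4309 in normal regions and 3284 to 3365 in lesions. The 10 hepatocyte markers were all detected, with a summed level of 87740 to 94619 CPM in normal regions and 139600 to 169010 CPM in lesions. The largest part of that sum in both groups was albumin (Alb), which went from 34156 to 82269 CPM on average. Of the 10 markers 5 rose and 5 fell (Apob, Cps1, Hpd, Tat and Ttr), and their median log2 fold change was -0.0041. All 9 macrophage markers fell, and their sum went from 902 to 982 CPM down to 553 to 579 CPM. Their part in the carboxylesterase results was not tested. In bulk tissue fewer cells of a type and less RNA per cell cannot be told apart. Lesion 3 stood apart from lesions 1 and 2. It had 11.2 units of chi-square per degree of freedom against each of them, where lesions 1 and 2 differed by 1.57. Values of lesion 3 are therefore given separately below. By the same measure normal regions 2 and 3 differed by 1.37, and normal region 1 differed from them by 3.15 and 3.38. Counting noise alone would give about 1. Lesions 1 and 2, and normal regions 2 and 3, thus differed little beyond it. Whether the libraries of such a pair came from separate animals is not given. An SD or p-value over 3 libraries may therefore overstate how far the groups were replicated.

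All 20 genes lie on mouse chromosome 8 (build GRCm38.p6, the assembly behind mm10). The 8 Ces1 genes stand in a row between 93020214 and 93379777, all on the minus strand. The 11 genes of the Ces2, Ces3 and Ces4 subfamilies stand between 104734003 and 105150109 on the plus strand, and 11354 kb separate these blocks, with Ces5a inside that stretch. Near-identical copies can share reads. In windows of 50 bases of the GENCODE transcripts, 36.1% of the Ces2c windows also occur in another gene, mostly in the neighbouring pseudogene Ces2d-ps, and 25.6% of the Ces3a windows occur in Ces3b. The share was 17.3% for Ces2a, 13.0% for Ces1c and 11.6% for Ces1b, and at most 3.3% for the other 5 members. Ces3a overlaps an unverified transcript of the opposite strand (Gm45724), Ces1d overlaps one of its own strand (Gm45909), and the strand setting of the counting is not given in the sources used here. Counts of Ces2c, Ces3a, Ces2a and Ces1d are therefore the least certain singly.

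Promoter windows from RefSeq, 250 bases before to 50 after a transcript start in GRCm38.p6, were at hand for 7 of the 10 members. The Ces2 windows are shown because Ces2a fell, Ces2c was not called and Ces2e rose in the lesions, although the 3 genes are close neighbours. Capitals mark the 3 longest runs of letters that Ces2a and Ces2e share, and Ces2c holds none of them.
Ces2a (chr8:104733753-104734052, plus strand): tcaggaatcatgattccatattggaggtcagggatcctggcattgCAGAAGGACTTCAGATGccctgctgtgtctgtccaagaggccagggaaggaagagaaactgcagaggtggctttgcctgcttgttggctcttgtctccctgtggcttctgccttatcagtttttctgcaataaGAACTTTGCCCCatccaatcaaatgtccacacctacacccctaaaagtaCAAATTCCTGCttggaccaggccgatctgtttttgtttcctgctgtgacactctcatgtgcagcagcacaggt
Ces2c (chr8:104846818-104847117, plus strand): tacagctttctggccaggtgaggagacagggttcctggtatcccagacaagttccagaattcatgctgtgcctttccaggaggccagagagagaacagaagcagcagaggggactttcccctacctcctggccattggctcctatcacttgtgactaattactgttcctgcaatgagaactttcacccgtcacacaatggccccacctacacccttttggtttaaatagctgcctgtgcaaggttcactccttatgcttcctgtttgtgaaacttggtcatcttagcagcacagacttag
Ces2e (chr8:104926010-104926309, plus strand): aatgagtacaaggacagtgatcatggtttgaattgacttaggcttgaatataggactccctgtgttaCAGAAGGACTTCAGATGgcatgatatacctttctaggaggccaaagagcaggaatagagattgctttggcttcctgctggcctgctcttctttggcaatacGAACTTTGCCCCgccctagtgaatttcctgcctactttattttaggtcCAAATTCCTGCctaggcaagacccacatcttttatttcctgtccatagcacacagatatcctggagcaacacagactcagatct
The run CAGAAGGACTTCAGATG was in 2 of 32851 mouse promoter windows on either strand, those of Ces2a and Ces2e, and the run GAACTTTGCCCC was in 3. The third run, CAAATTCCTGC, was in 8. Aligned end to end, Ces2a and Ces2e were identical at 184 of 265 aligned bases (69.4%), Ces2a and Ces2c at 201 of 291 (69.1%) and Ces2c and Ces2e at 180 of 267 (67.4%). Gaps, which these percentages leave out, took 70 bases for Ces2a with Ces2e, 18 for Ces2a with Ces2c and 66 for Ces2c with Ces2e, so Ces2a and Ces2c had the most identical bases and the fewest gaps.

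The Ces1b and Ces1c windows are shown because they are nearly copies of each other, while Ces1b fell and Ces1c was not called. RefSeq gives Ces1b a pair of starts, and the downstream one is shown. Capitals mark the 3 longest shared runs, of 58, 40 and 26 bases.
Ces1b (chr8:93079891-93080190, minus strand): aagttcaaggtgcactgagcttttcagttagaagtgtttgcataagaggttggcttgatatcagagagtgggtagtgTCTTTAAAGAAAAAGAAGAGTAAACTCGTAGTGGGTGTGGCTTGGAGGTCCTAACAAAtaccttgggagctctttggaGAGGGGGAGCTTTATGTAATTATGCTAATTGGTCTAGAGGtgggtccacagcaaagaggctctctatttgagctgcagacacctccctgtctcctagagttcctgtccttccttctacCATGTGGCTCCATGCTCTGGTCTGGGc
Ces1c (chr8:93131234-93131533, minus strand): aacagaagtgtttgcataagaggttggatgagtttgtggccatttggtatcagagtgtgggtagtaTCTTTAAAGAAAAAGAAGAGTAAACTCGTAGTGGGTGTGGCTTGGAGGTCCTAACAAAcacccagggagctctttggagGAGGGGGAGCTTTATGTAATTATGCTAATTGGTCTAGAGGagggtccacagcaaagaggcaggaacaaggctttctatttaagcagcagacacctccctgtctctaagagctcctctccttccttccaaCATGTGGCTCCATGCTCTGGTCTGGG
These windows were identical at 255 of 273 aligned bases (93.4%, with 54 gap bases), against 60.7% to 67.3% for the other pairs among Ces1b, Ces1c, Ces1e and Ces1g. Simple motifs were searched on both strands in the 7 members. The nuclear receptor motif AGGTCA was found in Ces2a alone among them, and in 16.3% of all windows. The letters TATAAA were found in Ces1g alone, and in 13.6% of all windows. The box CCAAT was found in 5 of the 7 and in 37.4% of all windows. The HNF4A motif CAAAGTCCA was in none of the 7 and in 0.475% of all windows. None of these motifs contains another, and a match or its absence describes the letters of the window only.

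Of the 10 carboxylesterases 6 fell, 2 rose and 2 were not called in the lesions. Ces2a, Ces3a, Ces1e, Ces1b, Ces1f and Ces1d were at 0.512 to 0.721 of their normal means, while Ces1g was 1.62-fold and Ces2e 1.84-fold higher. Among all 12506 tested genes 37.1% were called with edgeR's quasi-likelihood test at an adjusted p under 0.05, 18.4% lower and 18.7% higher. When counts were scaled by library size only, 1474 genes were higher and 3615 lower in place of 2340 and 2296, the median of all genes moved to -0.14, and 2 members were higher and 7 lower. The median log2 fold change of the 10 was -0.48, and that of all tested genes was 0.0031. In 8 of the 10 the lesion libraries lay entirely beyond the normal libraries, 6 below and 2 above, as was so for 48.2% of all tested genes, 24.0% below and 24.2% above.

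**Figure D1:**
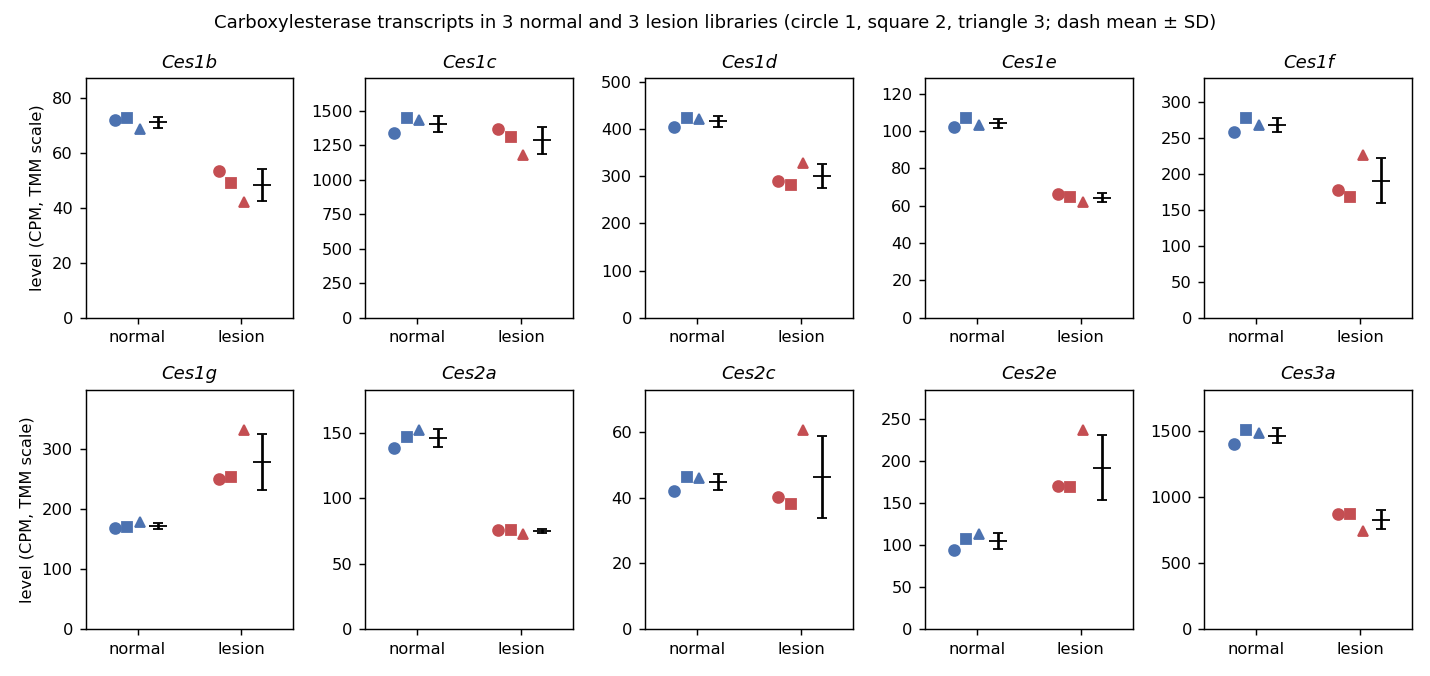
Level of each of the 10 carboxylesterases in CPM on the TMM scale (y axis from 0, a separate scale for each gene) in 3 normal (blue) and 3 lesion (red) libraries, with the symbol giving the replicate number and the dash and bar the mean ± SD of 3 libraries. The groups overlap for Ces1c and Ces2c and lie apart for the other 8, and lesion 3 (triangle) is the highest lesion for Ces1d, Ces1f, Ces1g, Ces2c and Ces2e.

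Ces1d and Ces1f fell, while Ces1g of the same block rose. Ces1d (Entrez 104158, 93166072 to 93197804), the triacylglycerol hydrolase that mobilises stored triglyceride for secretion in very low density lipoprotein (VLDL), was at 404, 424 and 423 CPM in normal regions 1 to 3 and at 289.6, 283 and 329 CPM in lesions 1 to 3. Every lesion was below every normal region. The log2 fold change of -0.47 had an SE of 0.0633 and an edgeR adjusted p of 7.96e-06. Ces1f (Entrez 234564, 93256236 to 93279766), a second hydrolase of this kind also called TGH-2, was at 258, 277 and 268 CPM in normal regions and at 178, 167 and 227 CPM in lesions. The groups did not overlap, but lesion 3 lay much nearer to the normal regions than lesions 1 and 2 did. The log2 fold change of -0.49 had an SE of 0.0994 and an edgeR adjusted p of 0.00303, and lesion 3 by itself was at -0.23 against the normal regions, a value with no test.

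Ces1g, also known as Ces1 or Es-x, was the member of this block that rose. Its loss in mice is known to raise lipid synthesis in the liver. Ces1g (Entrez 12623, 93302369 to 93337209) was at 168, 169.8 and 178 CPM in normal regions and at 250.2, 254 and 332 CPM in lesions. All lesions were above all normal regions, lesion 3 most of all. It rose by 0.70 on the log2 scale (with SE 0.101 and an adjusted p of 0.000338 in edgeR), while its neighbours on the lower-coordinate side, Ces1f, Ces1e and Ces1d, fell. The ratio of Ces1f to Ces1g CPM within a library was 1.54, 1.63 and 1.51 in the normal regions and 0.712, 0.66 and 0.683 in the lesions. The order of these neighbours was thus turned in each lesion, in CPM and also in FPKM, which divides by transcript length. The ratio fell by 1.19 on the log2 scale (exact two-sided permutation p = 0.1, the smallest that 3 against 3 can give, and 0.122 adjusted over the 45 pairs of members). Most of the 45 pairs had this same p. Since Ces1f was lower and Ces1g higher in all lesions, their ratio could only fall, and it adds no evidence beyond the single genes.

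Ces1e, egasyn, holds the enzyme beta-glucuronidase in the endoplasmic reticulum. Ces1e (Entrez 13897, 93201218 to 93229631) was at 102, 107 and 103 CPM in normal regions and at 66.4, 64.5 and 61.8 CPM in lesions. The libraries within a group were close together, and the log2 fold change of -0.70 had an SE of 0.0692 and an edgeR adjusted p of 1.41e-07. Gusb, the beta-glucuronidase gene itself, was at 38.4 ± 0.967 CPM in normal regions and 43.9 ± 0.691 CPM in lesions (SD, n = 3), a log2 fold change of 0.19 that did not pass (edgeR adjusted p = 0.0774).

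Ces1c, the esterase that the mouse liver secretes into plasma, was not called. Ces1c (Entrez 13884, 93099015 to 93131283) was at 1338, 1446 and 1431 CPM in normal regions and at 1365, 1312 and 1179 CPM in lesions. Lesion 1 lay within the range of the normal regions and lesion 3 was the lowest. The log2 fold change was -0.13 with a 95% interval from -0.25 to -0.0037 (edgeR unadjusted p = 0.0442, adjusted p = 0.0991). It was called lower when counts were scaled by library size only (-0.27, edgeR adjusted p = 0.00255), without a count filter (-0.14, edgeR adjusted p = 0.047). It was -0.07 without lesion 3 (edgeR adjusted p = 0.144), and lesion 3 by itself was at -0.25, a value with no test.

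Ces1b, the near copy of Ces1c by promoter, is a member whose role is little described. Ces1b (Entrez 382044, 93056725 to 93080017) was at 72.1, 72.7 and 68.9 CPM in normal regions and at 53.6, 49.0 and 42.0 CPM in lesions. The groups did not overlap, and the log2 fold change of -0.56 had an SE of 0.0872 and an edgeR adjusted p of 4.26e-05. The log2 ratio of Ces1b to Ces1c within a library went from -4.30 ± 0.0821 to -4.74 ± 0.07 (SD, n = 3), a fall in all 3 lesions below all normal regions (exact two-sided permutation p = 0.1, 0.122 adjusted over 45 pairs). The design cannot give a smaller p for such a ratio.

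The Ces2 genes went 3 ways. Ces2a (Entrez 102022, 104734003 to 104741634), a hydrolase of di- and triacylglycerol in the liver, was at 139, 147 and 153 CPM in normal regions and at 75.9, 75.5 and 72.9 CPM in lesions. Its lesion libraries were nearly equal, and it had the lowest fold change of the 10 at -0.97 in log2 units, with an SE of 0.0669 and an edgeR adjusted p of 7.33e-10. Ces2e (Entrez 234673, 104926260 to 104934672), expressed in intestine and liver, was at 93.9, 107 and 113 CPM in normal regions and at 170.1, 169 and 237 CPM in lesions. All lesions were above all normal regions, with lesion 3 the highest. The log2 fold change of 0.88 had an SE of 0.158 and an edgeR adjusted p of 0.00695, and it was 0.70 without lesion 3 (edgeR adjusted p = 8.69e-16). That smaller p rests on lesions 1 and 2, which differed by only 1.57 units of chi-square per degree of freedom. It is no firmer evidence of a rise than the p of all 6 libraries. The ratio of Ces2a to Ces2e CPM was 1.48, 1.37 and 1.35 in the normal regions and 0.446, 0.447 and 0.307 in the lesions. CPM is not corrected for transcript length. In FPKM, which is, Ces2a was likewise above Ces2e in every normal region and below it in every lesion. The CPM ratio fell by 1.83 on the log2 scale (exact two-sided permutation p = 0.1, 0.122 adjusted over 45 pairs). With Ces2a lower and Ces2e higher in all lesions, this ratio too could only fall.

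Ces2c, known as an acylcarnitine hydrolase and the least abundant of the 10, split the lesions. Ces2c (Entrez 234671, 104847068 to 104854483) was at 42.0, 46.3 and 46.1 CPM in normal regions and at 40.3, 37.9 and 60.7 CPM in lesions. Lesions 1 and 2 were below all normal regions and lesion 3 was above all of them. The log2 fold change was 0.05, with a 95% interval from -0.37 to 0.46 (edgeR adjusted p = 0.865). Lesion 3 by itself was at 0.45 against the normal regions, a value with no test. The log2 fold change was -0.20 without lesion 3 (edgeR adjusted p = 0.0705) and -0.10 when counts were scaled by library size only (edgeR adjusted p = 0.654). The pseudogene Ces2d-ps, which shares windows with Ces2c, had the same order of libraries in the lesions, at 17.4, 16.1 and 25.0 CPM.

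Ces3a is an abundant liver esterase. Ces3a (Entrez 382053, 105048576 to 105061928) was at 1402, 1513 and 1486 CPM in normal regions and at 876, 873 and 744 CPM in lesions. No lesion came near the normal range, and the log2 fold change of -0.82 had an SE of 0.0637 and an edgeR adjusted p of 4.77e-09. Its sister Ces3b, which is not one of the 10 and shares 26.2% of its windows with Ces3a, went from 355 ± 15.1 to 174 ± 5.87 CPM (log2 fold change -1.03, edgeR adjusted p = 5.8e-11).

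**Figure D2:**
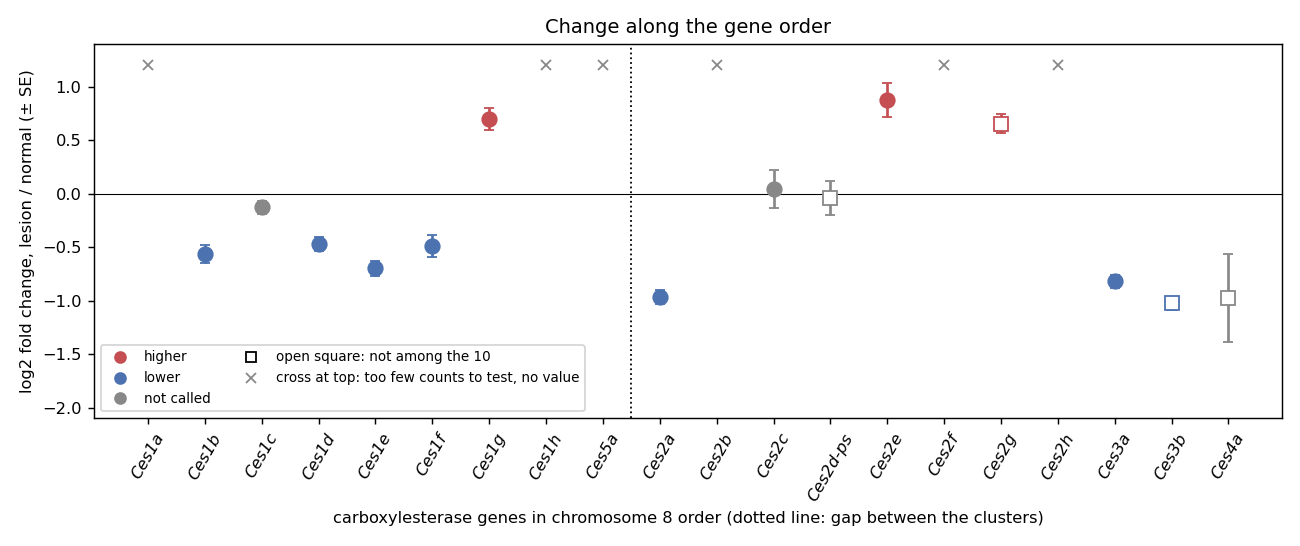
Log2 fold change of lesion over normal (y axis, ± SE) for the 20 carboxylesterase genes in their order on chromosome 8 (x axis), with filled circles for the 10 members, open squares for other tested family genes and crosses at the top for genes with too few counts. Ces1g at 0.70 follows genes that fell or were not called, Ces2e at 0.88 and Ces2g at 0.65 rose, and Ces3a and Ces3b fell side by side at -0.82 and -1.03.

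Of the other 10 carboxylesterase rows, 4 had enough counts to test. Besides Ces3b, Ces2g rose from 38.1 ± 3.58 to 59.9 ± 3.09 CPM (log2 fold change 0.65, SE 0.088, edgeR adjusted p = 8.28e-06), as Ces2e did. Ces2f, which had too few counts to test, lies between Ces2e and Ces2g. Ces2d-ps had a log2 fold change of -0.04 (edgeR adjusted p = 0.863). Ces4a, with 6 to 20 counts a library, had a log2 fold change of -0.98 (SE 0.41, edgeR adjusted p = 0.0691). Ces1a, Ces1h, Ces2b, Ces2f and Ces2h had at most 11 counts in any library, and Ces5a had 0 counts in all 6, which allows up to 3 counts a library. In the authors' deposited table the log2 fold changes of the 10 members ran from -0.97 for Ces2a to 0.88 for Ces2e.

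Levels of different genes were compared in FPKM, which divides a count by transcript length and a scaled library size. In normal regions the order was Ces1c (758 ± 32.4 FPKM, SD, n = 3), Ces3a (710.3 ± 29.1), Ces1d (210.3 ± 5.75), Ces1f (139 ± 5.21), Ces1g (74.4 ± 2.26), Ces2a (73.8 ± 3.56), Ces1e (49.8 ± 1.23), Ces2e (38.4 ± 3.58), Ces1b (36.0 ± 1.05) and Ces2c (22.6 ± 1.23). Neighbouring pairs that there were Ces1c with Ces3a, Ces1g with Ces2a and Ces2e with Ces1b. In lesions Ces1c (692 ± 50 FPKM) and Ces3a (402 ± 35.5 FPKM) no longer overlapped. Ces1g moved from rank 5 to rank 4 at 121 ± 20.4 FPKM, Ces2e from rank 8 to rank 6 at 70.5 ± 14.6 FPKM, and Ces2a from rank 6 to rank 7 at 37.7 ± 0.736 FPKM. Ces1d, Ces1g, Ces1f and Ces2e overlapped with their neighbours in the lesion order, as did Ces1b and Ces2c.

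The summed FPKM of the 20 genes was 2207, 2374 and 2344 in the normal regions and 1797, 1749.8 and 1754 in the lesions, with every lesion below every normal region (exact two-sided permutation p = 0.1, the smallest possible). The 10 members made up 91.5% to 91.6% of that sum in normal regions and 93.1% to 93.7% in lesions. Within it the share of Ces3a went from 30.8% ± 0.118 to 22.7% ± 1.88, and that of Ces1c from 32.8% ± 0.145 to 39.2% ± 2.47 (SD, n = 3). Ces1c thus took a larger part of a smaller sum. The share of Ces1g went from 3.23% ± 0.106 to 6.84% ± 1.21. The share of Ces2e was 1.56%, 1.66% and 1.77% in the normal regions and 3.47%, 3.54% and 4.98% in the lesions. For each of these 4 genes all lesions lay beyond all normal regions (exact two-sided permutation p = 0.1, 0.143 adjusted over the 10 members). Ces1d and Ces1f fell in level but had overlapping shares; that of Ces1d was 9.11% ± 0.108 in normal regions and 8.58% ± 0.793 in lesions.

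**Figure D3:**
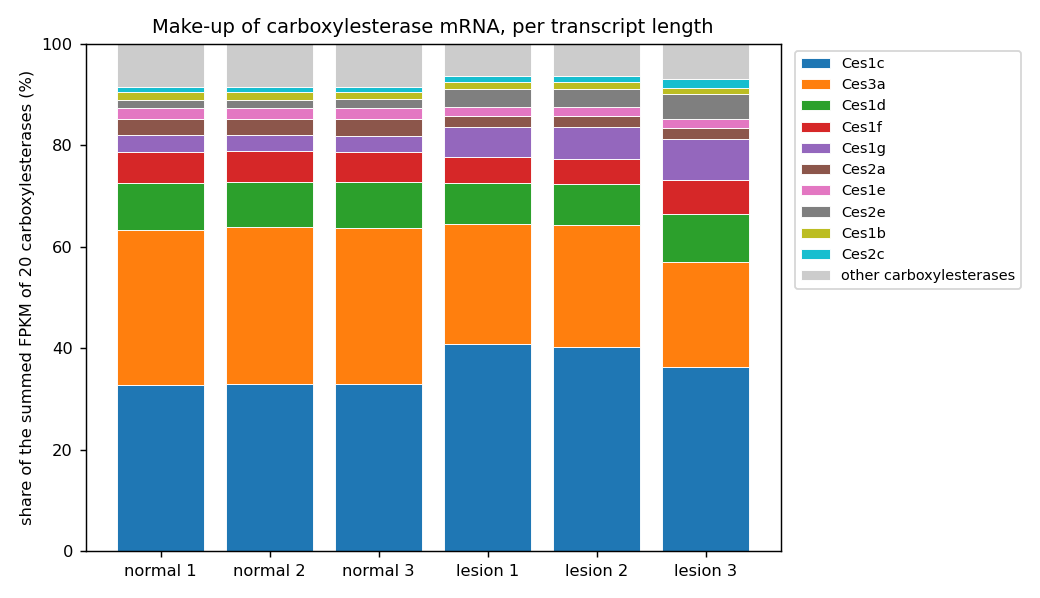
Share of each carboxylesterase in the summed FPKM of all 20 (y axis, percent, from 0 to 100) in each of the 6 libraries (x axis), with the 10 other family genes pooled in grey. The 3 normal bars are nearly alike, while in the lesions Ces3a takes 20.6% to 24.1% in place of 30.7% to 30.9% and Ces1g and Ces2e widen.

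Lesion 3 differed from the mean of lesions 1 and 2 in 5 members upward and in 5 downward. On the log2 CPM scale with 0.5 added, the difference was 0.63 for Ces2c, 0.48 for Ces2e, 0.40 for Ces1g, 0.39 for Ces1f and 0.20 for Ces1d. It was -0.28 for Ces1b, -0.23 for Ces3a, -0.18 for Ces1c, -0.08 for Ces1e and -0.05 for Ces2a. The median size over all tested genes was 0.176. Ces2a and Ces1e were thus among the steadiest members across lesions, and Ces2c, Ces2e, Ces1g and Ces1f the least steady. With 1 library on one side there is no test of this pattern. The counts of 6 lower and 2 higher members were the same without lesion 3. The values of lesion 3 by itself were added after the data were seen.

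**Figure D4:**
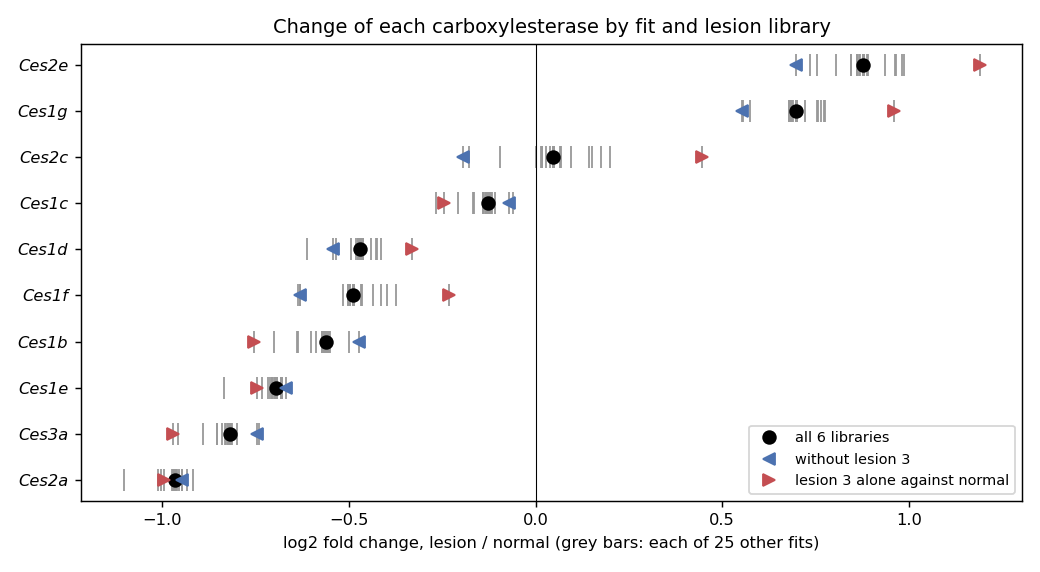
Log2 fold change of lesion over normal (x axis) for the 10 members under 26 fits, with the fit to all 6 libraries as black circles, the fit without lesion 3 as blue triangles, lesion 3 alone as red triangles and the others as grey bars. Ces2c spans both sides of 0, from -0.20 to 0.45, and the other 9 stay on one side.

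Most genes of a list of other hydrolases, which includes enzymes that act on foreign esters, epoxides and lactones, fell as well. The list also holds genes whose enzymes have other substrates, among them Lactb2, Fahd1, Afmid and Siae. Of 14 tested genes of that list 10 fell, 1 rose and 3 were not called, with a median log2 fold change of -0.42. Pon1, the plasma paraoxonase, went from 239.6 ± 7.71 to 97.0 ± 1.79 CPM (log2 fold change -1.30, edgeR adjusted p = 2.72e-12). The epoxide hydrolase gene Ephx2 had a log2 fold change of -0.87, Cmbl, which activates ester prodrugs, -1.12, and the lactamase-like gene Lactb2 -0.95 (edgeR adjusted p at most 3.46e-08). The arylacetamide deacetylase gene Aadac, chosen after its values were seen because its enzyme works beside the carboxylesterases in the endoplasmic reticulum, fell from 187 ± 2.28 to 128 ± 9.13 CPM (log2 fold change -0.55, edgeR adjusted p = 1.58e-06).

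Hydrolases and cofactors of neutral lipid went both ways. Of 14 tested genes 7 fell, 3 rose and 4 were not called, with a median log2 fold change of -0.24. The hepatic lipase gene Lipc had a log2 fold change of -0.97, the monoglyceride hydrolase gene Abhd6 -0.96 and the phospholipase gene Pnpla8 -0.67 (edgeR adjusted p at most 4.39e-06). The lipoprotein lipase gene Lpl rose from 26.6 ± 0.586 to 89.3 ± 15.7 CPM (log2 fold change 1.74, edgeR adjusted p = 6.16e-09). In the list of VLDL assembly, the export route that Ces1d serves, 4 of 10 tested genes fell, 2 rose and 4 were not called, with a median of -0.07. The coat gene Sec23a had a log2 fold change of -0.52 and Apob, the structural protein of VLDL, -0.27. Tm6sf2, needed to load VLDL with lipid, rose by 0.62, and the apolipoprotein gene Apoa4 by 1.97 on the log2 scale. Apob and Apoa4 no longer passed when both libraries numbered 1 were dropped (edgeR adjusted p = 0.0712 and 0.0892) or both numbered 2 (edgeR adjusted p = 0.155 and 0.073).

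Among 14 regulators known to act on drug and lipid genes of the liver, 7 fell, 1 rose and 6 were not called, with a median log2 fold change of -0.18. The growth hormone receptor gene Ghr went from 542 ± 17.2 to 262 ± 3.19 CPM (log2 fold change -1.05, edgeR adjusted p = 1.51e-11). Nr0b2, the repressor SHP, had a log2 fold change of -0.77 and the glucocorticoid receptor gene Nr3c1 -0.30 (edgeR adjusted p at most 0.00186). The xenobiotic receptor genes Nr1i3 (CAR) and Nr1i2 (PXR), chosen after their values were seen, had log2 fold changes of -0.59 and -0.32 (edgeR adjusted p = 0.0448 and 0.00396). Nr1i3 no longer passed when normal region 1, 2 or 3 was dropped (edgeR adjusted p = 0.116, 0.0953 and 0.0715). Hnf4a, also chosen after its values were seen, was at 700.1 ± 6.4 and 724 ± 16.1 CPM (log2 fold change 0.05, edgeR adjusted p = 0.496).

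Of 21 tested targets of CAR and PXR 12 fell, 4 rose and 5 were not called, with a median log2 fold change of -0.59. The cytochrome genes Cyp2c37 and Cyp2c29 had log2 fold changes of -1.88 and -1.47, and the haem synthesis gene Alas1 -0.82. Cyp2b9, a cytochrome of the same family as the CAR target Cyp2b10, rose from 28.6 ± 0.983 to 142 ± 7.26 CPM (log2 fold change 2.31, edgeR adjusted p = 3.22e-14). Cyp2b10 itself had too few counts to test. Members that moved in opposite directions were thus seen in this list as among the carboxylesterases, and these lists were compared by their counts and medians only.

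**Figure D5:**
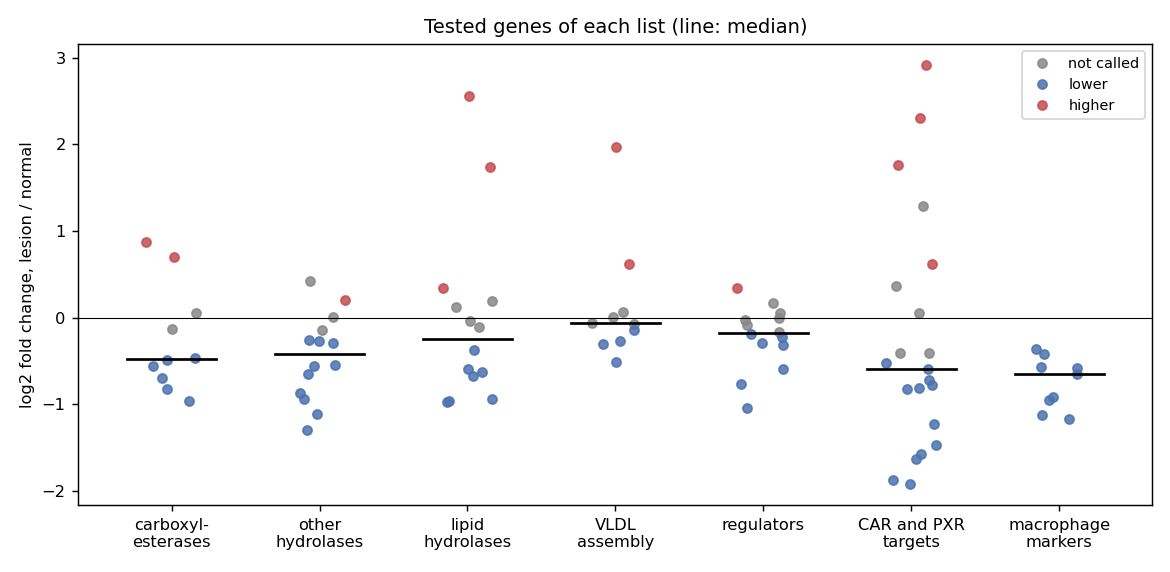
Log2 fold change of lesion over normal (y axis) of each tested gene in 7 lists (x axis), coloured by its call at an edgeR adjusted p under 0.05, with the median of each list as a line. The carboxylesterase median of -0.48 lies between that of the other hydrolases (-0.42) and that of the CAR and PXR targets (-0.59), and all 9 macrophage markers lie below 0 (median -0.65).

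Beside the macrophage markers, other cell types were represented as follows. Of 8 endothelial markers 2 rose and 1 fell, and their sum was 648 to 663 CPM in normal regions and 658 to 686 CPM in lesions. Of 8 stellate cell markers 2 rose and 2 fell, with sums of 347 to 352 CPM and 347 to 415 CPM. Of 6 cholangiocyte markers Spp1 and Sox9 had enough counts to test, and both rose, with sums of 27.9 to 28.9 CPM and 129 to 169 CPM. The defining cholangiocyte genes Krt19, Krt7 and Epcam were too low to test. Lymphocyte markers summed to 7.7 to 9.22 CPM and 8.26 to 9.95 CPM, and 4 of 6 proliferation markers had enough counts to test and rose. The part of these cells in the carboxylesterase results was not tested.

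The genes whose pattern was most like that of Ces1c, the most abundant member by FPKM, were Smc6, Clk4 and Tbccd1. Their root mean square difference from Ces1c over the 6 libraries, in log2 CPM centred on the normal mean, was 0.0243, 0.0262 and 0.0307. None of the 3 was called.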

How the data were processed

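RNA of 6 dissected regions was depleted of ribosomal RNA and sequenced, per the labels' protocols. The submitters' processing notes name CASAVA 1.8, cutadapt 1.18, STAR 2.5.2b, DESeq2 1.24.0 and mm10, with no role or order. Which program counted reads, on which annotation and strand, is not given in the sources used here. Counts (whole numbers, 1 row per Entrez ID) and FPKM values were deposited side by side. The count to FPKM ratio between any pair of libraries was 1 constant over genes with at least 100 counts. Their deposited table of lesion against adjacent also holds log2 fold changes, scores (a mean level and a test statistic) and p-values. Molecular identifiers are not named, so counts are of reads.

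Counts were tested with edgeR 4.0.16 in R 4.3.3 (default expression filter, TMM, robust quasi-likelihood test with group as the only term, two-sided, Benjamini-Hochberg adjustment over 12506 genes). The SE is the log2 fold change over the square root of F. Levels are CPM or FPKM, as mean ± SD over 3 libraries. Ratios and shares were tested with exact permutations over samples. Same-numbered regions did not deviate together (correlations of 0.0092, -0.0194 and -0.0228), so the replicate number was used as a block in an alternative only. Other alternatives were RLE, upper quartile and no scaling, 2 other filters, DESeq2 1.42.0, limma-voom (limma 3.58.1), limma on log2 FPKM with pseudocounts of 1 and 0.1, libraries left out or summed, and Alb with Rn45s or the family left out of the scale. The procedure was tested on simulated libraries drawn independently, with the same dispersion for all genes. That simulation held no outlying or near-identical libraries, so it does not test the p-values of this design.

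Named genes are the 10 members, the other family rows, and from each list up to 4 passing genes with the lowest p, with exceptions said in the text; 1 gene of the regulators that this rule names is not reported here. Members and lists were chosen with earlier results of these data known. Protein sequences were not used here.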

Additional observations from a re-analysis of the deposited data

How the results depend on the processing

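Over 25 alternative fits the count of higher members was 2 in all but 1 and the count of lower members 6 or 7. The exception had lesion 3 as the sole lesion; its spread comes from the normal regions alone and assumes that a lesion varies like them, so its 3 and 7 are no test of the lesions. Ces1b, Ces1d, Ces1e, Ces1f, Ces1g, Ces2a, Ces2e and Ces3a were called in the same direction in every other fit. Their adjusted p in those fits was at most 0.0355. Leaving out libraries gave 2 higher and 6 lower members each time. With the replicate number as a block, 2 members were higher and 6 lower, as were 2293 and 2233 of all genes. The block changed no member's call. It does not enter the CPM, so which groups lay apart could not change. On library size alone the median of all genes shifted to -0.14 on the log2 scale, 1474 genes were higher and 3615 lower, and 2 members were higher and 7 lower. Over all genes 2340 were higher and 2296 lower with 6 libraries, 1423 and 1505 without replicate 1 of both groups, 1349 and 1352 without replicate 2, 2642 and 2631 without replicate 3, and 2798 and 2796 with lesion 3 alone left out. Of 1617 values of named genes under alternatives, 73 lost their call, 8 gained one and 0 changed direction past the threshold. The 70 values of family shares under alternatives each moved by no more than the larger SD of the groups. Most of these alternatives left out 1 of 3 libraries, which cannot move a group mean by the SD of that group. That outcome was therefore fixed in advance and is no evidence that the shares are steady. The cause of these changes was not tested. Ces2c, at 271 to 415 counts a library, had the largest SE of the 10, at 0.177. Ces1b, at 287 to 495 counts a library, had an SE of 0.0872.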
